A study of Mus musculus with 5 samples.

Results

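Of the 9135 genomic regions bound by the transcription factor Runx3 in IL-2-activated mouse CD8+ T cells (CD8-TC), 700 lay far from genes and carried the enhancer-associated histone mark H3K4me1. A region was taken when its centre was 50 kb or more from the nearest annotated transcription start site (TSS) of any transcript, and when 1 or more of its bases fell in a region marked by H3K4me1. There were 1002 Runx3-bound regions beyond 50 kb, so that 302 remote regions were unmarked. The remote marked regions made up 13.4% of the 5234 Runx3-bound regions that touched an H3K4me1-marked region at any distance.

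The ChIP-seq data came from splenic CD8+ T cells of ICR mice, an outbred stock with no engineered allele named in the labels, which were bead-selected for CD8, activated through the T cell receptor for 2 days with anti-CD3e and anti-CD28, and cultured for 4 days in 100 u/ml IL-2. The 5 libraries were 2 Runx3 immunoprecipitations, 2 controls with nonimmune serum (NIS) and 1 H3K4me1 immunoprecipitation, all from the same kind of culture, and the age and number of the mice are not given in the sources used here. Per the study's methods peaks were called on the joined reads of repeats, but the labels used here list 1 library for H3K4me1, so whether the list that defines the mark rests on 1 library or on joined repeats is not settled. The 2 lists hold positions only, with no peak height, read count or value per library, so there is no replicate error. Shares are therefore given with 95% Wilson intervals, which cover counting error among regions and nothing else, and regions that neighbour each other are not independent.

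RUNX proteins bind DNA through the conserved Runt domain together with the partner Cbfb. CD8+ T cells need Runx3 to be activated and to proliferate effectively, and in the CD8 lineage Runx3 silences Cd4 and helps to set up the cytotoxic programme. Monomethylation of lysine 4 of histone H3 marks enhancers, both active and poised, and is low over the nucleosome-free centre of many active ones. Enhancers can act over long distances by looping to a promoter, and genes that encode lineage transcription factors are often flanked by long stretches without other genes that hold many such elements. Nearest genes are given below as positions, since contact with a gene was not measured.

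The central 200 bp of 8 remote marked regions are printed here (mm9, plus strand, 5′ to 3′). RUNX motifs on either strand, meaning TGTGGT and its variants with a C as the third base, as the last base or as both, are in capitals. The first 5 are the regions with the most RUNX motifs for each immune list described below that had any such region nearest to 1 of its genes, ties going to the region closest to its gene's start, followed by the region farthest from any TSS. The last 2, a region with the highest number of RUNX motifs and the motif-richest region beside Id2, were added after the values had been seen.
Tgfbr2, 52.0 kb downstream of its start, chr9:116032298-116032497: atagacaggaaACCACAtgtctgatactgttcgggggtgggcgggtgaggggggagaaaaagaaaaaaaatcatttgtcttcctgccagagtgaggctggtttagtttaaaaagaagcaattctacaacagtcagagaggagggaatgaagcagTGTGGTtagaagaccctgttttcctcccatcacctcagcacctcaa
Fasl, 117.5 kb downstream, chr1:163601059-163601258: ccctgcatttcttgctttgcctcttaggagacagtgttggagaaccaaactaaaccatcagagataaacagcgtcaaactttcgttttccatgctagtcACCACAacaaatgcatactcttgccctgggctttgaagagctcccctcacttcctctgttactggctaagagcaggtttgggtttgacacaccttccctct
Eomes, 120.6 kb upstream, chr9:118266588-118266787: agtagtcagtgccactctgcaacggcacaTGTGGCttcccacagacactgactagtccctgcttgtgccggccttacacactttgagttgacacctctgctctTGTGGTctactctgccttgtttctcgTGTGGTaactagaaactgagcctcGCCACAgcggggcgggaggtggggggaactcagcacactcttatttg
Itgb1, 113.2 kb upstream, chr8:131096300-131096499: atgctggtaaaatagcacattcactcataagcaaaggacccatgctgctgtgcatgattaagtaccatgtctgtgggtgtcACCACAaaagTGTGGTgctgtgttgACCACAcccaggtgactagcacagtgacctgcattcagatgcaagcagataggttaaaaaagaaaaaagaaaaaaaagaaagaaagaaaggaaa
Runx1, 58.4 kb downstream, chr16:92767767-92767966: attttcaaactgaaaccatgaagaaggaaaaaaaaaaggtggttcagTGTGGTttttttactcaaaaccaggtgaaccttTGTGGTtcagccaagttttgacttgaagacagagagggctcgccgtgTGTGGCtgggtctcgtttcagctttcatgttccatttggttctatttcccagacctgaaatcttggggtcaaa
Sel1l, 974.5 kb upstream, chr12:94061953-94062152: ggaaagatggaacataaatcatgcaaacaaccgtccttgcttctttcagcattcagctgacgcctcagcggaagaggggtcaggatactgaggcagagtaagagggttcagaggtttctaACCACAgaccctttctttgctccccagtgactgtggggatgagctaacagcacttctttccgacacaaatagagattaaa
Tomm20, 98.1 kb downstream, chr8:129371552-129371751: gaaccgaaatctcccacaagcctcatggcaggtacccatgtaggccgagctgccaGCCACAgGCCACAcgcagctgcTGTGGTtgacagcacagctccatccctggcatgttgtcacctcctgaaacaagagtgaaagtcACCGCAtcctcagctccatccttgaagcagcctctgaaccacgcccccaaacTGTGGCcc
Id2, 335.1 kb upstream, chr12:26115913-26116112: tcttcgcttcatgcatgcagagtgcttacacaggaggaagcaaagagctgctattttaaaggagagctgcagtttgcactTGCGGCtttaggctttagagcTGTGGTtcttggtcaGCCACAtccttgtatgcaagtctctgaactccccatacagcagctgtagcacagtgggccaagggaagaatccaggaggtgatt
The Eomes region held 4 RUNX motifs and no ETS motif, whereas the Tgfbr2 region held 2 RUNX and 3 ETS motifs. The Itgb1, Runx1 and Id2 regions held 3 RUNX motifs each, the Tomm20 region held 5, and the Fasl and Sel1l regions held 1.

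The remote marked regions were mostly short and single. Their width ran from 204 to 1564 bp with a median of 542 bp, against medians of 452 bp in the remote unmarked regions, 537 bp in the 3025 marked regions 5 to 50 kb from a TSS and 521 bp in all Runx3-bound regions. The distance to the nearest TSS ranged from 50.011 to 662.283 kb with a median of 84.6 kb. There were 259 regions (37%) at 100 kb or more and 63 at 200 kb or more. The median distance to the nearest protein-coding gene start was 104.4 kb, and the longest was 974.5 kb.

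The farthest region lay at chr12:94061852-94062254, 662.3 kb from the nearest TSS, which belonged to the pseudogene Gm2228, and Sel1l, which acts in the degradation of misfolded proteins of the endoplasmic reticulum, was the nearest coding gene. The next were a pair on chromosome 15 (50231466-50231925 and 50232052-50232374), about 427 kb from the start of Trps1, a GATA-type repressor gene. A further 2 lay upstream of Sall3, at 403.4 and 373.6 kb from the nearest TSS. The widest region, chr9:60845831-60847394, spanned 1564 bp and had no RUNX motif in its central 200 bp. The next 3 in width, of 1440, 1111 and 1091 bp, had none there either, and the fifth, of 1087 bp in Gfod1, had 1.

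The limit of 50 kb cuts through a continuous range. The 5 regions just inside it, beside Arhgap26, Cyb5r2, Znrf2, Osbpl8 and Gm8894, were centred between 50.011 and 50.219 kb from a TSS, and all were wholly marked. The 5 Runx3-bound regions just outside it lay between 49.903 and 49.992 kb, and those beside Tmem26 and Pde11a shared sequence with an H3K4me1-marked region while the other 3 did not.

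Sequence 50 kb or more from any TSS made up 37.0% of the assembled sequence of chromosomes 1 to 19 and X, or 945.8 Mb, and held 0.740 remote marked regions per Mb. Nearer sequence held 2.82 marked Runx3-bound regions per Mb. Density kept falling with distance, from 1.15 per Mb at 50 to 100 kb to 0.648 per Mb at 100 to 200 kb and 0.242 per Mb at 200 kb or more. The H3K4me1-marked regions thinned out too, from 3.66 to 2.05 and 0.746 per Mb over the same steps. The share of Runx3-bound regions that were marked moved little beside its intervals, at 70.3% (66.6 to 73.8), 70.3% (64.6 to 75.3) and 65.6% (55.7 to 74.4) over these steps and 72.9% (71.5 to 74.2) at 5 to 50 kb, against 19.97% (18.4 to 21.6) under 1 kb. Conversely, 33.5% of the 2216 H3K4me1-marked regions centred 50 kb or more from a TSS touched a Runx3-bound region.

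**Figure D1:**
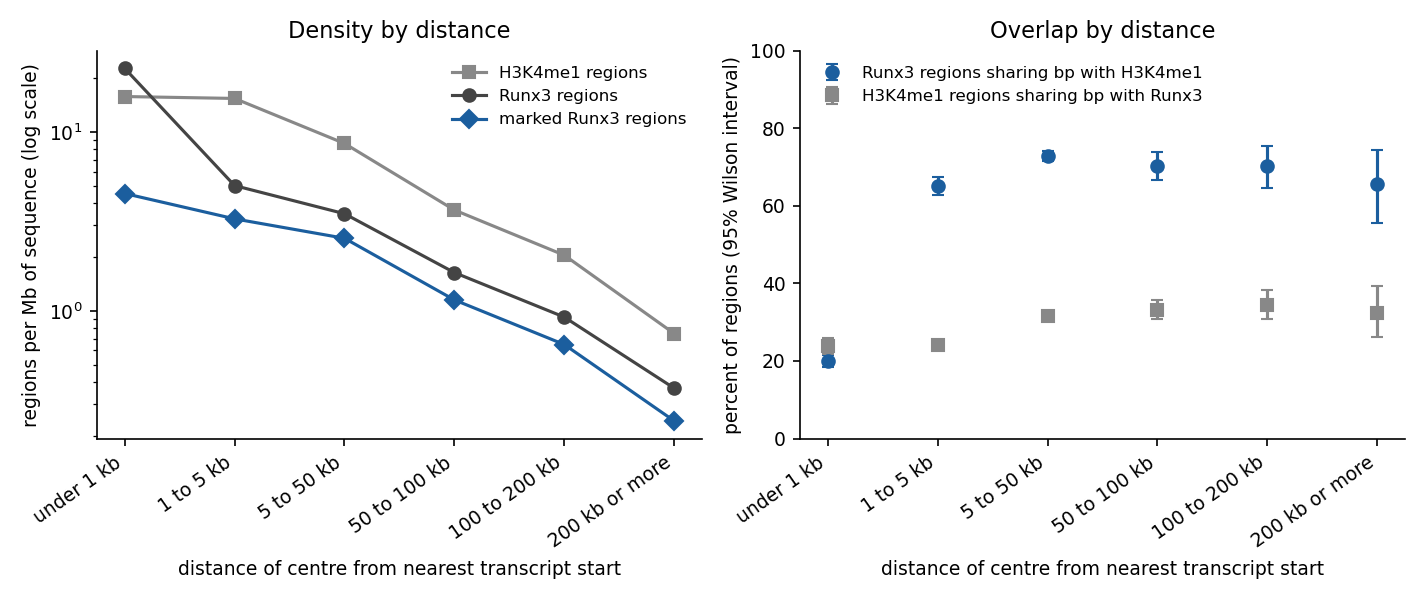
Left, regions per Mb of sequence outside assembly gaps (log scale) by distance of the centre from the nearest TSS, for H3K4me1-marked, Runx3-bound and marked Runx3-bound regions; right, share of Runx3-bound regions that share sequence with an H3K4me1-marked region and the reverse, with 95% Wilson intervals. Density falls at each step, to 0.242 marked Runx3-bound regions per Mb at 200 kb or more, while the marked share stays between 65.6% and 72.9% from 5 kb on.

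The regions were spread unevenly over chromosomes. Chromosome 10 held 64, chromosome 13 held 60, and chromosomes 1 and 8 held 56 each, while chromosome 11 held 6 and X held 2. Per Mb of sequence beyond 50 kb the order was chromosome 9 (1.30), 10 (1.20) and 13 (1.19), with chromosome 11 (0.257) and X (0.0475) last. Chromosome 11, a gene-dense chromosome, had the largest number of Runx3-bound regions (725), so that remote marked regions were 0.828% of them, against 14.9% on chromosome 13.

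Most regions sat inside the mark, with H3K4me1 reaching to both sides. Of the 700, 441 (63.0%, 59.4 to 66.5) lay wholly inside 1 H3K4me1-marked region, 153 crossed 1 edge of 1 marked region, and 106 (15.1%, 12.68 to 17.99) touched 2. The share wholly inside was 62.6% (60.9 to 64.4) in the marked regions at 5 to 50 kb and 34.7% in all Runx3-bound regions, a list that includes the unmarked. Where 2 marked regions were touched, the unmarked gap between them had a median of 89 bp and a range of 1 to 600 bp. The overlap was small in a few cases: 84 regions were under 50% covered, and the fewest bp shared was 3.

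The 746 H3K4me1-marked regions that were touched were 525 to 12514 bp wide with a median of 1896 bp. Among all H3K4me1-marked regions beyond 50 kb, the median width was 1898 bp for the 742 that touched a Runx3-bound region and 1527 bp for the others. Whether this difference goes beyond the larger target that a wide region offers was not tested. Up to 6 remote marked regions sat on the same marked region, and 51 marked regions held 2 or more. An H3K4me1-marked region lay over the centre in 83.1% of the 700, over the point 500 bp to either side in 86.7% and 84.9%, at 1000 bp in 65.0% on both sides, and at 5000 bp in 16.3% and 16.6%. The centre was therefore covered slightly less often than its immediate surroundings, and the corresponding values of the marked regions at 5 to 50 kb were 82.6% at the centre and 65.8% and 65.2% at 1000 bp.

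**Figure D2:**
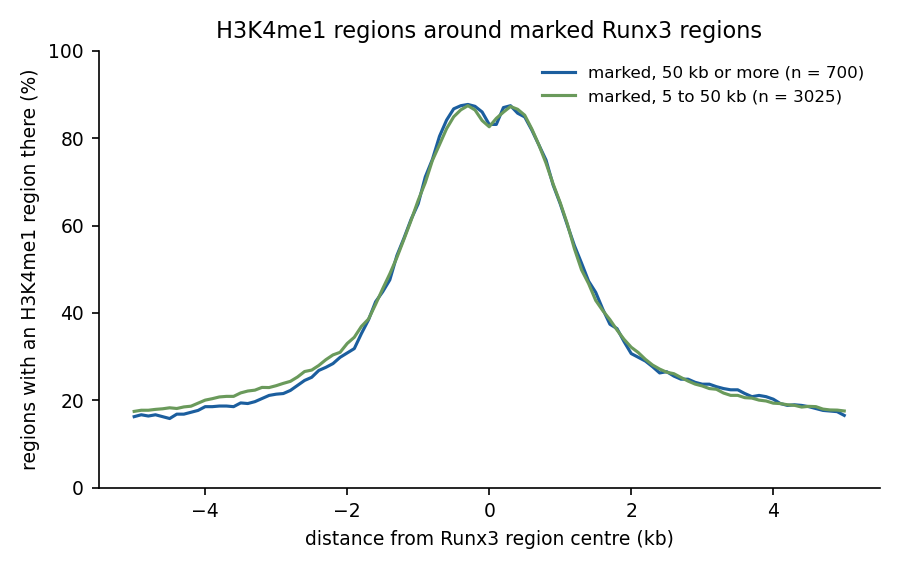
Percent of marked Runx3-bound regions that have an H3K4me1-marked region at each distance from the Runx3 region's centre, in steps of 100 bp, for the 700 remote regions and the 3025 regions at 5 to 50 kb. Both curves dip at the centre, to 83.1% and 82.6%, and fall to 16.3% to 17.6% at 5 kb; some overlap near the centre is set by the way regions were chosen.

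The RUNX motif was the leading sequence feature. In the central 200 bp, 573 of the 700 regions (81.9%, 78.8 to 84.5) held a RUNX motif, against 78.8% of all Runx3-bound regions. Windows of the same length centred 1000 bp to either side held it in 26.6%, which is 3.07 times less often. The share in the remote unmarked regions was 82.5% (77.8 to 86.3), and the difference of -0.6 percentage points had an interval of -5.5 to 4.8. Hence the share with a RUNX motif did not differ beyond counting error with the mark, and the marked regions at 5 to 50 kb had a like share of 81.1% (79.6 to 82.4).

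Among variants TGTGGT dominated. It was found in 63.4% of the remote marked regions against 13.7% of flank windows, and TGTGGC in 29.9% against 13.2%. The variants that contain a CpG were rare, TGCGGT in 7.0% and TGCGGC in 3.6%, while all Runx3-bound regions, a list with many promoters, had 13.7% and 8.4%. In the 573 regions with a motif the one nearest to the centre was a median of 30 bp away, and in 406 of them (70.9%) it was within 50 bp. There were 309 regions with 1 RUNX motif, 199 with 2, 53 with 3, 9 with 4 and 3 with 5. The 3 regions with 5 motifs lay beside Tomm20, Tbc1d9 and Lrig1. In 127 regions (18.1%) no RUNX motif was found in the central 200 bp, against 21.2% of all Runx3-bound regions. Of these 127, 88 held an ETS motif. Regions with an ETS but no RUNX motif were 12.6% of the remote marked and 14.9% of all Runx3-bound regions.

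ETS proteins are a family of factors that bind GGAA cores and are known partners of RUNX proteins. An ETS motif (GGAA preceded by A or C and followed by A or G, both strands) stood in 483 remote marked regions (69.0%, 65.5 to 72.3), against 44.5% of flank windows and 66.1% of all Runx3-bound regions. In the remote unmarked regions the share was 60.6% (55.0 to 65.9), and the difference of 8.4 percentage points had an interval of 2.0 to 14.9. An ETS and a RUNX motif that did not overlap and lay at most 50 bp apart, an ETS-RUNX module, stood in 45.6% (41.9 to 49.3) of the remote marked regions, 37.1% (31.8 to 42.7) of the remote unmarked, 41.4% (39.7 to 43.2) of the marked at 5 to 50 kb and 39% of all Runx3-bound regions. These differences moved with region width: among regions at least 521 bp wide, the median of the whole list, an ETS motif was in 67.9% of 393 marked and 68.5% of 92 unmarked remote regions, and an ETS-RUNX module in 43.3% and 45.7%. The part of width in the difference was not tested.

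A RUNX-RUNX module by the same rule stood in 174 remote marked regions (24.9%, 21.8 to 28.2), 30.8% (25.9 to 36.2) of the remote unmarked and 25.7% of all Runx3-bound regions. Among the remote regions, 9.3% of those with the mark held at least 3 RUNX motifs and 13.6% of those without it, a difference of -4.3 percentage points with an interval of -9.0 to -0.1. In both measures the unmarked regions had the larger share, but the RUNX-RUNX difference of -5.9 percentage points had an interval of -12.2 to 0.02. The marked regions at 5 to 50 kb had larger shares too, at 28.1% (26.5 to 29.7) and 11.3% (10.2 to 12.5). Their intervals overlap those of the remote marked regions. Of all Runx3-bound regions, 10.9% held at least 3 RUNX motifs.

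**Figure D3:**
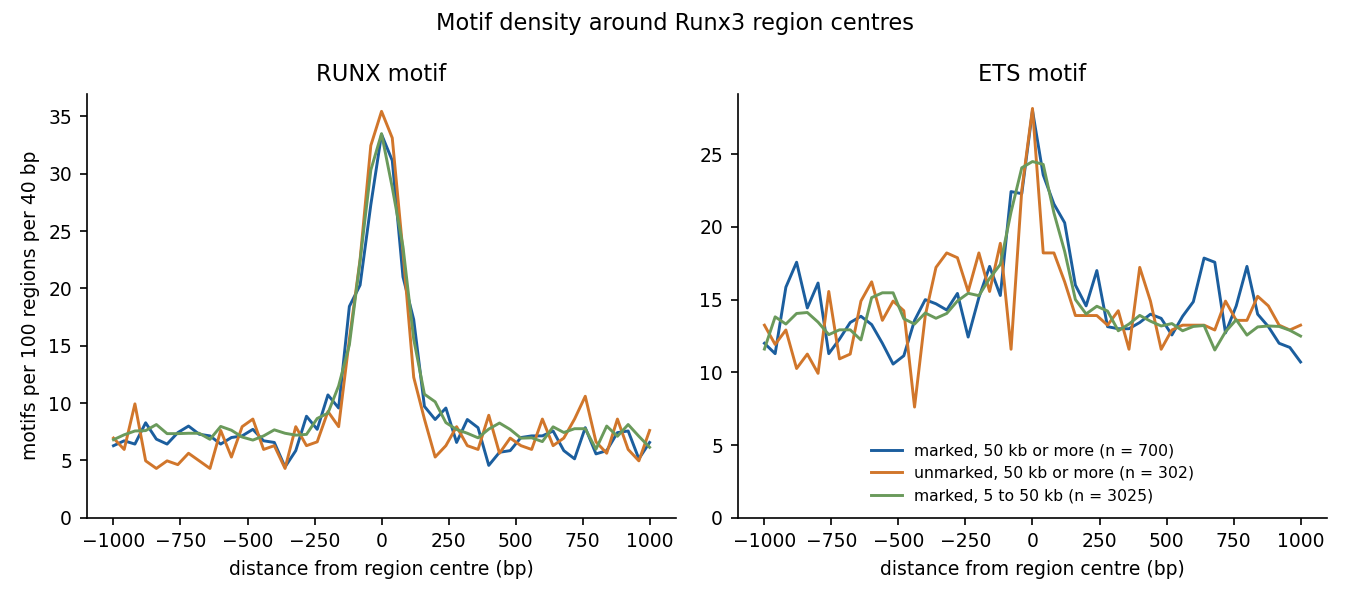
RUNX (left) and ETS (right) motifs per 100 regions in bins of 40 bp, against distance from the Runx3 region's centre, for remote marked, remote unmarked and marked regions at 5 to 50 kb. In the central bin the remote marked regions had 33.4 RUNX and 28.0 ETS motifs per 100 regions, against 6.29 and 12.0 at -1000 bp.

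A specific fused arrangement of both motifs recurred. In 202 arrangements of strand and spacing within 50 bp, the one found in most remote marked regions, 23, was a RUNX motif whose last base was also the last base of an ETS motif read on the other strand. The next highest count was 9 and the median of the others was 2. Because the motifs share 1 base, this arrangement is not counted as a module. It stood in 3.29% (2.20 to 4.88) of the remote marked regions, 1 of 1400 flank windows and 2.06% of all Runx3-bound regions, and the remote unmarked share of 3.64% was like it. The marked regions at 5 to 50 kb had 2.31% (1.84 to 2.91), an overlapping interval. The word TGTGGTTTCCT accounted for 12 of the 23. In the opposite order, an ETS motif running into a RUNX motif as in CTTCCTGTGGT, the arrangement stood in 5 remote marked regions (0.714%, 0.305 to 1.66), against 2.21% (1.75 to 2.80) of the marked regions at 5 to 50 kb and 1.6% of all Runx3-bound regions. The remote unmarked share of this order was 1.32% (0.52 to 3.36), which overlaps the marked, and 4 of 1400 flank windows held it. The first arrangement was singled out after the counts had been seen.

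The 4 sites of the first order whose nearest coding gene was on an immune list are printed with 12 bases on either side, in mm9, 5′ to 3′ on the strand of the RUNX motif, with the 11 bases of the fused motifs in capitals.
Tox, chr4:7134311-7134345, minus strand: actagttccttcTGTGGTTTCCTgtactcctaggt
Eomes, chr9:118314722-118314756, plus strand: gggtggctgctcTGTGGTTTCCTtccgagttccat
Tgfbr2, chr9:116032292-116032326, minus strand: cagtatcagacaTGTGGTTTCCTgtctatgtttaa
Bcl6, chr16:24151596-24151630, plus strand: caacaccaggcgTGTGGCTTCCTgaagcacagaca
The Bcl6 site carries the TGTGGC form, and the other 3 share the same 11 bases. The Tox site was 215.6 kb upstream of its gene start and 12 bp from the centre of its region, the Bcl6 site was 162.7 kb upstream, and the Eomes site 72.7 kb upstream. The Tgfbr2 site is the one at the left end of the longer Tgfbr2 sequence above, on the other strand.

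Motifs of factors that act downstream of T cell signals were found in fewer regions than RUNX or ETS motifs. The words searched differ in length and number, so these shares do not rank the motifs. A STAT motif (TTCNNNGAA), the site of factors activated by cytokine receptors, stood in 97 regions (13.9%, 11.5 to 16.6), against 6.6% of flank windows and 10.7% of all Runx3-bound regions. An AP-1 motif (TGAGTCA), bound by Fos, Jun and Batf proteins, stood in 58 regions (8.29%, 6.46 to 10.6), against 4.4% of flank windows and 6.49% of all Runx3-bound regions. The IRF motif, a pair of GAAA words 2 bases apart, stood in 41 (5.86%, 4.35 to 7.85), against 2.4% and 3.91%. The shares of AP-1 and STAT motifs in the remote unmarked regions were 8.61% and 12.6%, within the intervals of the marked, and that of the IRF motif was 3.97% (2.29 to 6.82), which overlaps the marked. The T-box motif AGGTGTGA, bound by T-bet and Eomes, was in 20 regions (2.9%) against 1.4% of flank windows and 1.9% of all Runx3-bound regions. The ratio of the central to the flank share was 2.41 for IRF, 2.11 for STAT, 2.11 for T-box and 1.87 for AP-1. It was 1.55 for ETS and 3.07 for RUNX motifs. NFAT motifs, searched as TGGAAA, and GATA motifs, searched as GATAA preceded by A or T, were less frequent at the centre, at 16.3% and 17.1%, than in the flanks, at 18.7% and 322 of 1400 windows. Their shares at the centre were lower still in all Runx3-bound regions, at 13.9% and 13.7%. The GC box GGGCGG, common in promoters, was in 3.3% against 15.4% of all Runx3-bound regions, 5.6% of the remote unmarked and 5.5% of the marked at 5 to 50 kb. The last class had AP-1 in 8.13%, STAT in 12.1%, T-box in 2.51%, NFAT in 16.4% and GATA in 16.1%, near the shares of the remote marked regions. Its IRF share was 4.03%, a difference of 1.82 percentage points with an interval of 0.13 to 3.92.

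Most of the remote marked regions stood outside genes. There were 440 (62.9%, 59.2 to 66.4) outside every annotated gene, beside 63.9% (58.3 to 69.1) of the remote unmarked regions, 44.0% of the marked regions at 5 to 50 kb and 35.7% of all Runx3-bound regions. Another 251 lay in a protein-coding gene, of which 152 were in the gene whose start was also the nearest coding start and 99 in other coding genes. There were 21 (3.0%) that touched an exon, beside 1.7% of the remote unmarked regions, 7.1% of the marked at 5 to 50 kb and 26.7% of all Runx3-bound regions. Eif4e3 and Wwox held 7 each in their bodies, Atxn1 held 6, and Ankrd44, Cdyl2, Pde4d and Prkch held 5 each. Upstream and downstream positions relative to the nearest coding start were balanced, with 353 and 347 regions. For 510 regions (72.9%) the nearest TSS of any kind belonged to a protein-coding gene, and for 108 to a small RNA gene.

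The 700 regions were spread over 407 nearest coding genes, of which 257 were nearest to 1 region, 88 to 2 and 62 to 3 or more. The last group took 267 regions (38.1%). Id2 and Rplp1 had 10 each, Maf and Setbp1 had 9, Ets1 and Tbl1xr1 had 8, Btg1 and Foxp1 had 7, and Amigo2, Rap1b and Tox had 6. Id2 encodes an inhibitor of E proteins that is needed for effector CD8+ T cells, Btg1 an antiproliferative protein, Foxp1 a factor of naive T cell quiescence and Rap1b a small GTPase of integrin signalling. Rplp1 encodes a ribosomal protein, and its 10 regions lay 206.6 to 251.8 kb downstream, in the interval of 504.6 kb between its start and the nearest start of Tle3, a Groucho-type corepressor gene. The intervals differ in length, and per Mb of sequence beyond 50 kb and nearest to the gene, Id2 had 19.2, Maf 11.2, Ets1 9.82, Foxp1 24.2, Rplp1 45.2, Rap1b 61.2, Eomes 62.5 and Ifngr1 74.6, against 0.740 for all such sequence. These genes were singled out for their counts, so the densities are descriptions.

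The starts of these genes were themselves bound more often than coding gene starts at large, though no more often than those beside nearer marked regions. A Runx3-bound region was centred within 5 kb of the start of 92 of the 407 genes (22.6%, 18.8 to 26.9), against 13.5% of all 22238 coding genes and 25.8% (23.9 to 27.8) of the 2019 genes nearest to a marked region at 5 to 50 kb. The share was 19.1% (14.7 to 24.3) for genes nearest to 1 remote marked region, 26.1% (18.1 to 36.2) for 2 and 32.3% (22.0 to 44.6) for 3 or more, with overlapping intervals. An H3K4me1-marked region was that close to 29.98% (25.7 to 34.6) of the 407 starts, against 15.8% of all coding genes and 37.4% (35.4 to 39.6) of the genes nearest to a marked region at 5 to 50 kb. The 262 genes nearest to a remote unmarked region had 18.3% (14.1 to 23.5) bound and 19.5% (15.1 to 24.7) marked starts, and the 178 of them that were nearest to no remote marked region had 14.0% (9.7 to 19.9) in both measures. The bound shares of the 407 and the 262 genes have overlapping intervals. Genes with many remote regions did not always have a bound start: the nearest Runx3-bound region of any kind was 94.4 kb from the Id2 start and 193.0 kb from the Maf start, while it was 0.94 kb from the Tox start and 0.09 kb from the Prkch start.

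To describe the genes nearby, 6 lists of immune genes were used, with 156 genes in all, and 28 of them were the nearest coding gene of 83 remote marked regions (11.9%, 9.7 to 14.5). The corresponding share was 5.0% (3.0 to 8.0) of the remote unmarked regions, 7.4% (6.6 to 8.4) of the marked at 5 to 50 kb and 5.51% of all Runx3-bound regions. The difference from the remote unmarked regions was 6.89 percentage points (3.12 to 10.1), and among regions at least 521 bp wide it was 6.52 with an interval of -0.72 to 11.3, which spans 0. Transcription factors of T cells took the greater part, with 60 regions (8.57%, 6.72 to 10.9) and 18 of 47 genes, against 2.98% (1.58 to 5.57) of the remote unmarked regions, 2.05% of the marked at 5 to 50 kb and 1.93% of all. The difference between remote marked and unmarked regions was 5.6 percentage points, with an interval of 2.4 to 8.3.

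The share near the list of transcription factors was similar in remote H3K4me1-marked regions with and without Runx3. Of the 1474 H3K4me1-marked regions beyond 50 kb that touched no Runx3-bound region, 105 (7.12%, 5.92 to 8.55) had a gene of that list as nearest coding gene. Of the 742 that touched one, 63 (8.49%, 6.69 to 10.7) did, and the intervals overlap. The interval of the remote marked Runx3-bound regions overlaps both. Of positions placed every 1 kb in sequence beyond 50 kb, 0.746% did, so the 2.98% (1.58 to 5.57) of the remote unmarked Runx3-bound regions was also above this share. Of the 5463 coding genes nearest to such a position, 28 (0.513%) were on the list. Counted by gene rather than by region, 18 of 407 genes (4.42%, 2.82 to 6.88) were on the list, against 8 of 262 (3.05%, 1.56 to 5.91) for the remote unmarked regions, so the difference between regions rests partly on genes with many regions, and 38 of the 60 were nearest to Id2, Maf, Ets1, Tox or Eomes.

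All 10 regions of Id2 were upstream of its start, between 94.4 and 335.1 kb, on chromosome 12. Of these, 8 held a RUNX motif in the central 200 bp, and the region at chr12:26115701-26116324, the farthest, held 3. The interval between the starts of Id2 and a 5S rRNA gene, 591.7 kb long, held these 10 Runx3-bound regions, no other, and 32 H3K4me1-marked regions. The 9 regions of Maf, a factor of cytokine-producing T cells, were all downstream at 193.0 to 529.3 kb. They formed close pairs, at 307.3 and 309.5 kb, at 478.8 and 480.7 kb and at 517.8 and 519.2 kb, and the 5 farthest were in the body of Wwox. The 8 regions of Ets1, which encodes an ETS factor abundant in T cells, were downstream at 179.5 to 424.6 kb, beyond the end of the gene, with 5 of them between 274.7 and 305.4 kb.

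Tox, a factor of T cell development and of persistently stimulated CD8+ T cells, had 4 regions in its own introns 56.5 to 89.3 kb downstream of the start and 2 upstream at 215.6 and 494.1 kb. The 5 regions of Eomes, a T-box factor of effector and memory CD8+ T cells, were upstream at 61.5, 72.7, 103.4, 117.1 and 120.6 kb, and held 2, 1, 2, 0 and 4 RUNX motifs. In contrast with Id2, 4 other Runx3-bound regions lay in the same window around Eomes, closer to its start.

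**Figure D4:**
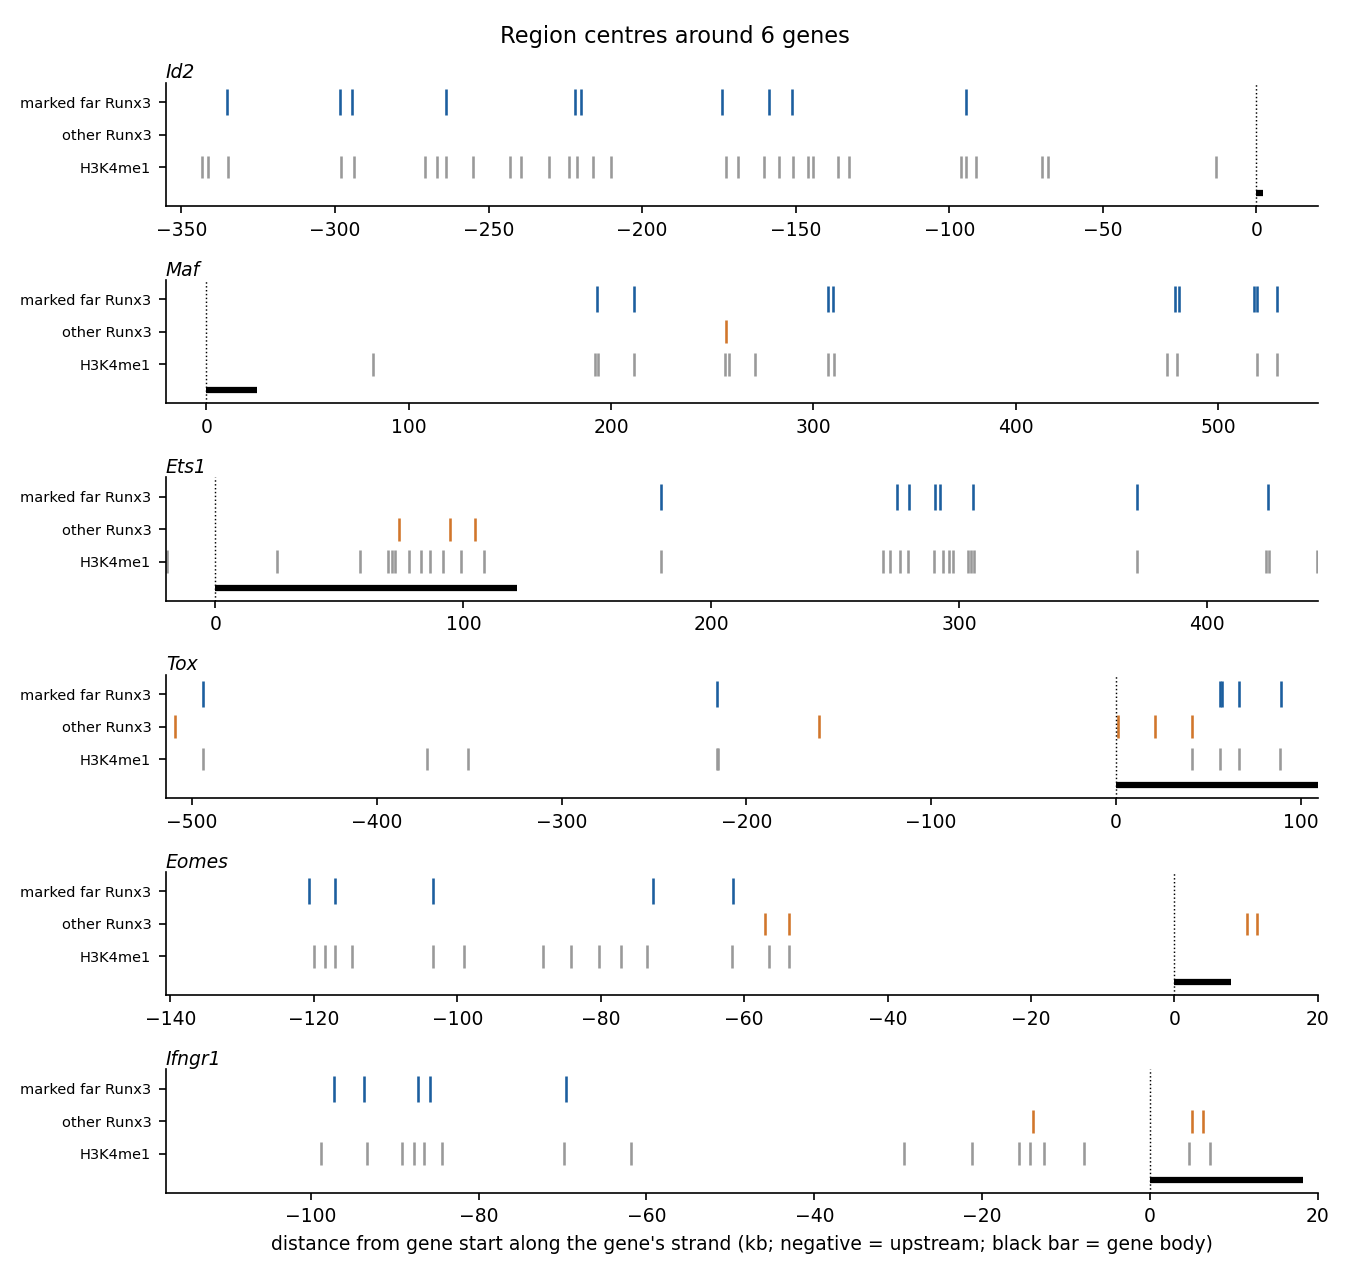
Centres of remote marked Runx3-bound regions, other Runx3-bound regions and H3K4me1-marked regions around Id2, Maf, Ets1, Tox, Eomes and Ifngr1, in kb from the gene start along the gene's strand (negative is upstream); the black bar is the gene body, cut at the edge of the window. All 10 regions of Id2, 5 of Eomes and 5 of Ifngr1 are upstream, and all 9 of Maf and 8 of Ets1 are downstream.

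The other factors of the list that were nearest to a region had 1 or 2 each. Bach2, also on the list, held 3 regions in its body, but its start was the nearest coding start of 0. Pairs stood in introns of Bcl11b (77.2 and 78.7 kb downstream), a T cell identity factor, and of Nfatc1, which responds to calcium signals. Another pair stood upstream of Bcl6 (162.3 and 162.7 kb), a transcriptional repressor that acts in memory and follicular T cells. Pairs were also nearest to Lef1 and Satb1, upstream, and to Irf4 and Irf8, downstream. Foxo1, which sustains homing and memory genes, had 1 region in an intron at 75.5 kb and 1 beyond the gene at 128.1 kb. Runx1, the paralogue of Runx3, had 1 region in an intron at 58.4 kb and 1 upstream at 101.0 kb with 3 RUNX motifs each. Runx3 itself had 1 region 52.7 kb upstream, at chr4:134623538-134624133, with 1 RUNX motif, and Jun, Nfatc2 and Rora had 1 each.

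The list of cytokine receptors and their signalling gave 11 regions (1.57%, 0.880 to 2.79), close to 1.28% of all Runx3-bound regions. Ifngr1, which encodes the ligand-binding chain of the interferon gamma receptor, had 5, all upstream between 69.5 and 97.3 kb. Tgfbr2, the type II receptor of TGF-beta, had 1 in its body and 2 upstream at 163.2 and 191.1 kb. Il6st, the shared gp130 chain of the IL-6 family, had 2 at 50.3 and 56.2 kb upstream, and Il12rb2, an IL-12 receptor chain, had 1 that lay over an exon of the neighbouring Il23r. None was nearest to a gene of the IL-2 receptor.

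Effector genes were rarely the nearest, as in all Runx3-bound regions. Among 18 genes for cytotoxic effectors, cytokines and chemokines, Ifng and Fasl had 1 region each, 158.8 kb and 117.5 kb downstream. This was 0.286% of the regions, with an interval of 0.078 to 1.04 that includes the 0.46% of all Runx3-bound regions. Homing and adhesion gave 5 (0.714%, against 0.635%), with 4 upstream of Itgb1, the integrin beta 1 chain, and 1 of S1pr1, the receptor for exit from lymphoid organs. The proliferation genes that the study listed gave 7 (1%, against 0.712%), of which Myc had 4, at 172.8, 179.6 and 749.6 kb downstream and 314.5 kb upstream, Runx1 had 2 and Pik3cg 1. Since the study chose that list with these cells in view, it is not independent evidence. No region had a gene of the T cell receptor and costimulation list as nearest coding gene (0 of 700, which allows up to 0.429%), against 0.799% of all Runx3-bound regions. For 29 markers of B cells, myeloid cells, liver, neurons and muscle, of which 28 were in the annotation, the count was also 0 of the 700. They were nearest to 7 of all 9135 regions (0.0766%), which is below the limit of 0.429%. This count of 0 therefore does not set the remote marked regions apart from the whole list.

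Remote marked regions had close Runx3-bound neighbours more often than unmarked ones. Another Runx3-bound region was centred within 10 kb of 272 of the 700 (38.9%, 35.3 to 42.5), against 18.5% (14.6 to 23.3) of the remote unmarked regions, a difference of 20.3 percentage points with an interval of 14.4 to 25.7. The marked regions at 5 to 50 kb had 39.1% (37.4 to 40.8), and all Runx3-bound regions 33.5%. Among regions at least 521 bp wide the difference was 17.6 percentage points, with an interval of 6.8 to 26.6.

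**Figure D5:**
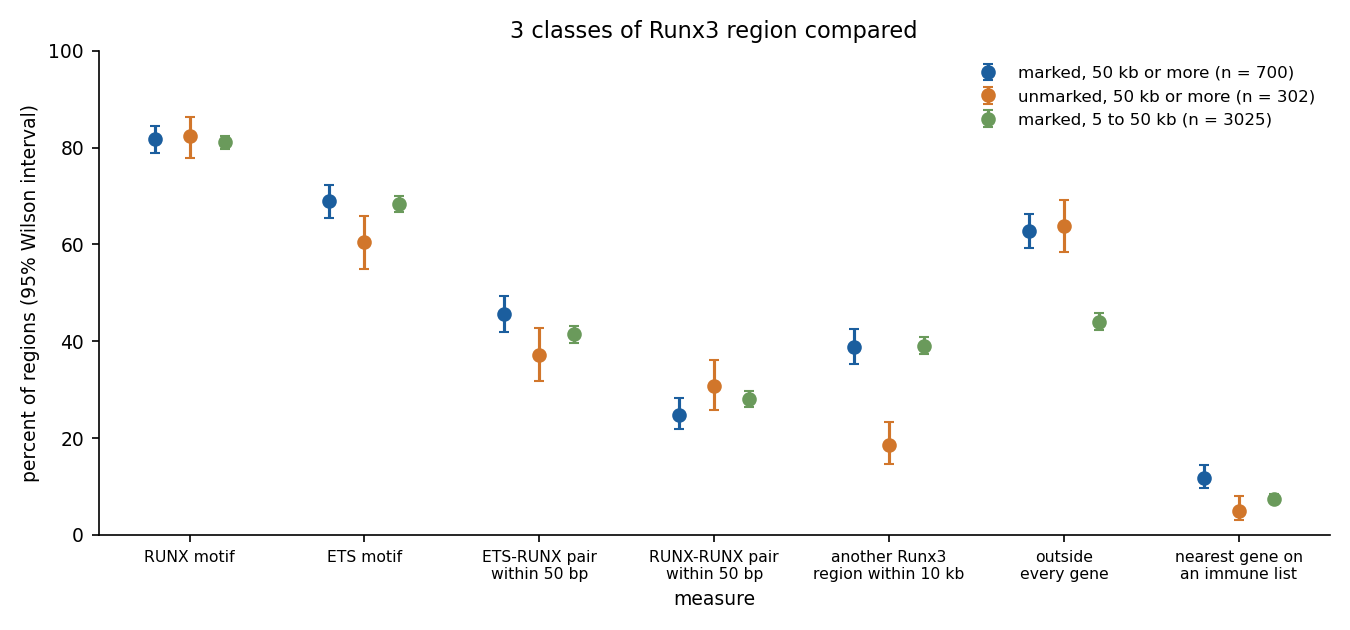
Percent of regions with each feature, with 95% Wilson intervals, in remote marked, remote unmarked and marked Runx3-bound regions at 5 to 50 kb. The RUNX motif share is alike in the 3 classes (81.9%, 82.5% and 81.1%), and the remote marked regions have a neighbour within 10 kb in 38.9% against 18.5% of the unmarked.

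Joined at 10 kb between centres, the 700 regions fell into 462 single regions, 80 pairs, 16 groups of 3, 3 of 4, 2 of 5 and 1 of 8. The group of 8 spanned 18900 bp at chr9:61510247-61529146, 233.4 to 251.8 kb from the nearest TSS, in the interval between Tle3 and Rplp1 named above. Of its 8 regions, 7 held a RUNX motif in the central 200 bp. The groups of 5 lay upstream of Setbp1, which encodes a SET-binding protein, within 10386 bp, and between D8Ertd82e and Lonrf1 within 24094 bp, where 3 of 5 held a RUNX motif. The 4 regions upstream of Ifngr1 at 85.7 to 97.3 kb made 1 group within 12210 bp, and those of Itgb1 another within 15081 bp.

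Between neighbouring TSSs, 392 intervals held a remote marked region, with a median length of 232.2 kb. There were 246 with 1 region and 21 with 5 or more, and these 21 held 138 of the 700. The fullest were the Id2 interval and the interval from Tle3 to Rplp1 with 10 regions each, followed by 9 between Setbp1 and a SNORA17 gene and 9 between a 5S rRNA and a U6 gene in the stretch of Wwox and Maf. The Ets1 interval, 1032 kb long, held 8 remote marked regions among 11 Runx3-bound and 25 H3K4me1-marked regions, and the interval between Rap1b and Mdm1, 295.9 kb long, held 7 among 8 and 25.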

How the data were processed

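ChIP-seq was made with 5 libraries of IL-2-activated CD8-TC: 2 with anti-Runx3, 2 with NIS and 1 with anti-H3K4me1. Per the labels and the methods, the authors aligned short reads to mm9 with ELAND, joined the uniquely mapped reads of repeats, scaled the larger set to the smaller and used MACS to call peaks, with NIS reads joined likewise as the control. The deposited lists hold start and end positions of peaks as whole numbers, with no score, signal, count or replicate value. The study's methods give read totals for the joined sets, but the files hold no reads per region, so the depth behind a single region is unknown, and a weak site can be missing from a list, so "unmarked" means that no H3K4me1 peak was called. With no replicate values no test over samples could be made.

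Positions were turned into 1-based coordinates, and the chromosome ends were checked against NCBIM37, the assembly of mm9, from which the printed sequences were read. Distances were taken from the region's centre to 86803 transcript starts of GENCODE vM1 on chromosomes 1 to 19 and X, and to the starts of 22380 protein-coding genes (22238 symbols). Overlap needed 1 bp. Motifs were searched on both strands in the central 200 bp and in windows of the same length 1000 bp to either side. A module is 2 motifs that do not overlap, at most 50 bp apart. Shares have Wilson and differences Newcombe intervals at 95%. An upper limit for a count of 0 uses 3 counts.

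The regions named are the 5 farthest, widest and richest in RUNX motifs, the 5 on either side of 50 kb, the largest groups and intervals, and every region nearest to an immune list gene. The set of regions, the lists and the comparisons were chosen with earlier results of these data known. Of the list genes, only Adgre1 had no match by symbol, and its older name Emr1 was also listed. Alternatives covered the distance, the overlap, the windows, the starts used and the sex chromosome. The work was done in Python 3.11.15 with pandas 2.3.3 for tables, NumPy 2.4.6, SciPy 1.17.1 for quantiles and matplotlib 3.10.9 for figures, using functions tested on simulated data.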

Additional observations from a re-analysis of the deposited data

How the results depend on the processing

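No paired analysis was possible because peaks were called on joined reads, and no library could be left out. Of 76 values under other settings over 10 results, 51 stayed within the 95% interval of the reported value, or within 1.5 times for the number of regions, and 25 moved. The number of regions fell from 700 to 259 with a distance of 100 kb and rose to 1556 with 1 start per protein-coding gene. Motif shares followed the window searched: in the central 100 bp, the central 400 bp and the whole region, a RUNX motif stood in 55.7%, 92.1% and 94.0%, a RUNX-RUNX module in 12.7%, 34.3% and 37.9%, an ETS-RUNX module in 23.7%, 60.6% and 65.1%, and an AP-1 motif in 3.71%, 15.0% and 17.6%. The share wholly inside 1 H3K4me1-marked region was 75.8% where the centre had to be marked, 71.6% where 50% of the width had to be, and 57.5% in regions at least as wide as the list median. Another Runx3-bound region was found within 5 kb in 27.7%, within 20 kb in 50.9%, and within 10 kb in 44.4% of regions beyond 100 kb. The share outside every gene was 75.3% beyond 100 kb and 43.9% where each protein-coding gene had 1 start. The share nearest to an immune list gene was 14.7% beyond 100 kb, 8.87% with 1 start per protein-coding gene and 15.3% with either flanking gene counted. The median width kept within its interval in all 5 of its alternatives. In an alternative added after seeing the data, restricted to regions at least as wide as the list median, the difference between remote marked and unmarked regions turned from 8.40 to -0.539 percentage points for ETS motifs and from 8.49 to -2.40 for ETS-RUNX modules, and stayed positive, with intervals above 0, for neighbours within 10 kb (17.6) and for the transcription factor list (7.06). For all immune lists it was 6.52 with an interval of -0.72 to 11.3, which spans 0, against 3.12 to 10.1 over all widths. The value of 7.06 for the transcription factor list rests on an unmarked share of 1.09% of 92 regions. Counted by gene over all widths, the shares were 4.42% and 3.05%, with overlapping intervals. Beyond the windows, distances and widths that define each value, the causes were not tested.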
